A study of Mus musculus with 30 samples.

Results

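The subject here is a group of 9 genes that encode ligands of the tumour necrosis factor (TNF) superfamily: Lta, Ltb, Tnf, Tnfsf8, Tnfsf10, Tnfsf11, Tnfsf14, Cd40lg and Fasl. They were picked by gene symbol from a fixed list of names, with earlier results of these data known. All 9 were present in both deposited RNA count tables, which held 25865 and 25860 gene symbols. These ligands are mostly made as trimeric proteins in the cell membrane, from which several can be cut to a soluble form. They bind receptors of the TNF receptor superfamily on neighbouring cells, which recruit TRAF adaptors or death domain proteins and so lead to NF-kappaB signalling or to cell death. CD4 T cells are a main source of several of them, through which they organise lymphoid tissue, help B cells and dendritic cells, and kill or restrain other cells.

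The libraries came from mouse CD4 T cells of spleen and lymph nodes, taken from control mice (WT) or from mice labelled as lacking protein kinase A (KO), the kinase that cyclic AMP activates. The labels name neither the gene, allele or Cre behind the KO, nor the strain, age or number of animals. The origin of each library in a separate animal is thus not known, and each p-value reflects library-to-library spread that may be technical. Naive cells, enriched as CD4 cells and sorted, were profiled directly or after 3 days with antibodies against CD3 and CD28 (activated). The last condition, for RNA alone, had 3 days of rest in IL-7 and then forskolin at 1 ug/mL for 4 hours. Forskolin switches on adenylyl cyclase, which makes cyclic AMP. The files hold no rested cells without forskolin, so a genotype difference in that condition cannot be split into what preceded forskolin and what followed it. RNA-seq covered 6 groups and ATAC-seq, which reads open chromatin by the cuts of a transposase, the 4 naive and activated groups, with 3 libraries in every group.

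RNA libraries held 7665955 to 11950488 counts and ATAC libraries 18522373 to 25318916 counts in sites. Levels below are given as CPM, a gene's counts relative to the size of its library, scaled with TMM within each table. Forskolin levels therefore come from a table scaled on its own. Transcript length was not part of these levels, so they are not compared between genes. As a check of the labels, Prkaca, the gene of a protein kinase A catalytic subunit, was at 36.5 ± 4.46, 47.9 ± 5.66 and 35.0 ± 2.27 CPM in naive, activated and forskolin-treated WT cells, and at 2.43 ± 0.307, 1.06 ± 0.283 and 3.18 ± 0.617 CPM in KO cells (SD, n = 3). All 7 CD4 T cell markers examined were found in every group. Their sum was 2387 to 2480 CPM in activated KO and 2893 to 3067 CPM in activated WT libraries, and 2133 to 2249 CPM and 2676 to 2747 CPM with forskolin. The single markers did not all follow that sum. Cd3e, Cd3d and Cd3g were higher in activated KO. Their means in WT and KO were 189 and 214, 195 and 216, and 200.2 and 252 CPM. Cd4, Trac, Cd5 and Cd6 were lower there. With forskolin Cd5 (162 and 199 CPM) and Cd6 (221 and 282 CPM) were higher in KO, and Cd3e, Cd3d, Cd3g, Cd4 and Trac lower. The sum of 10 B cell markers was higher in KO after activation, at 163 to 191 CPM against 105 to 129 CPM, and with forskolin, at 325 to 337 CPM against 171 to 193 CPM. Most of that sum was Ighm. Others at low levels were higher in activated KO too, such as Cd79b, at 4.31 against 1.91 CPM, and Ms4a1, at 1.05 against 0.0906 CPM. With forskolin Cd79a was at 3.17 against 2.20 CPM and Ighd at 1.29 against 0.546 CPM. Pax5 was not higher in activated KO, and Cd22 and Fcer2a were not higher with forskolin. Blk was at 0 in all activated and forskolin libraries. Of 5 regulatory T cell markers, the sum was 165 to 182 CPM in activated KO and 329 to 417 CPM in activated WT cells, most of it Tnfrsf9. Of the other 4 markers, 3 did not follow that sum, with means in WT and KO of 1.16 and 1.20 CPM for Foxp3, 4.74 and 6.53 CPM for Ikzf2, and 5.26 and 8.35 CPM for Nt5e, while Lrrc32 was at 4.44 and 3.16 CPM. With forskolin the order of the sum was opposite, at 89.5 to 97.3 CPM in KO and 58.9 to 65.0 CPM in WT, with Foxp3 at 40.0 and 16.4 CPM. A sum of 5 memory and effector markers was 391 to 417 CPM in activated KO and 650 to 688 CPM in activated WT cells. The part of these markers in the ligand differences below was not tested. In such bulk libraries, fewer cells of a type and less RNA per cell cannot be told apart.

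Activation changed the level of all 9 ligand genes in WT cells, with 7 higher and 2 lower (edgeR quasi-likelihood test, Benjamini-Hochberg adjusted p under 0.05 over 11980 genes). Most of the transcriptome did the same, with 82.6% of tested genes past the test, 42.3% higher and 40.3% lower. In KO cells 6 ligand genes were higher and 2 lower, where 82.1% of all genes passed, 42.3% higher and 39.8% lower. Before activation the genotypes differed in 0 of the 9 genes, against 0.242% of all genes. After activation 3 ligand genes were higher in KO and 4 lower, where 14.9% of all genes passed, 5.89% higher and 9.04% lower. With forskolin 4 were higher and 3 lower of 8 that could be tested, where 38.5% of all genes passed, 19.7% higher and 18.8% lower. Their median log2 fold change between activated genotypes was 0.04, and the median over all genes was 0.01. The count of 0 in naive cells was also 0 at an unadjusted p under 0.05, and 0 of the 9 were called with DESeq2 or limma-voom.

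**Figure D1:**
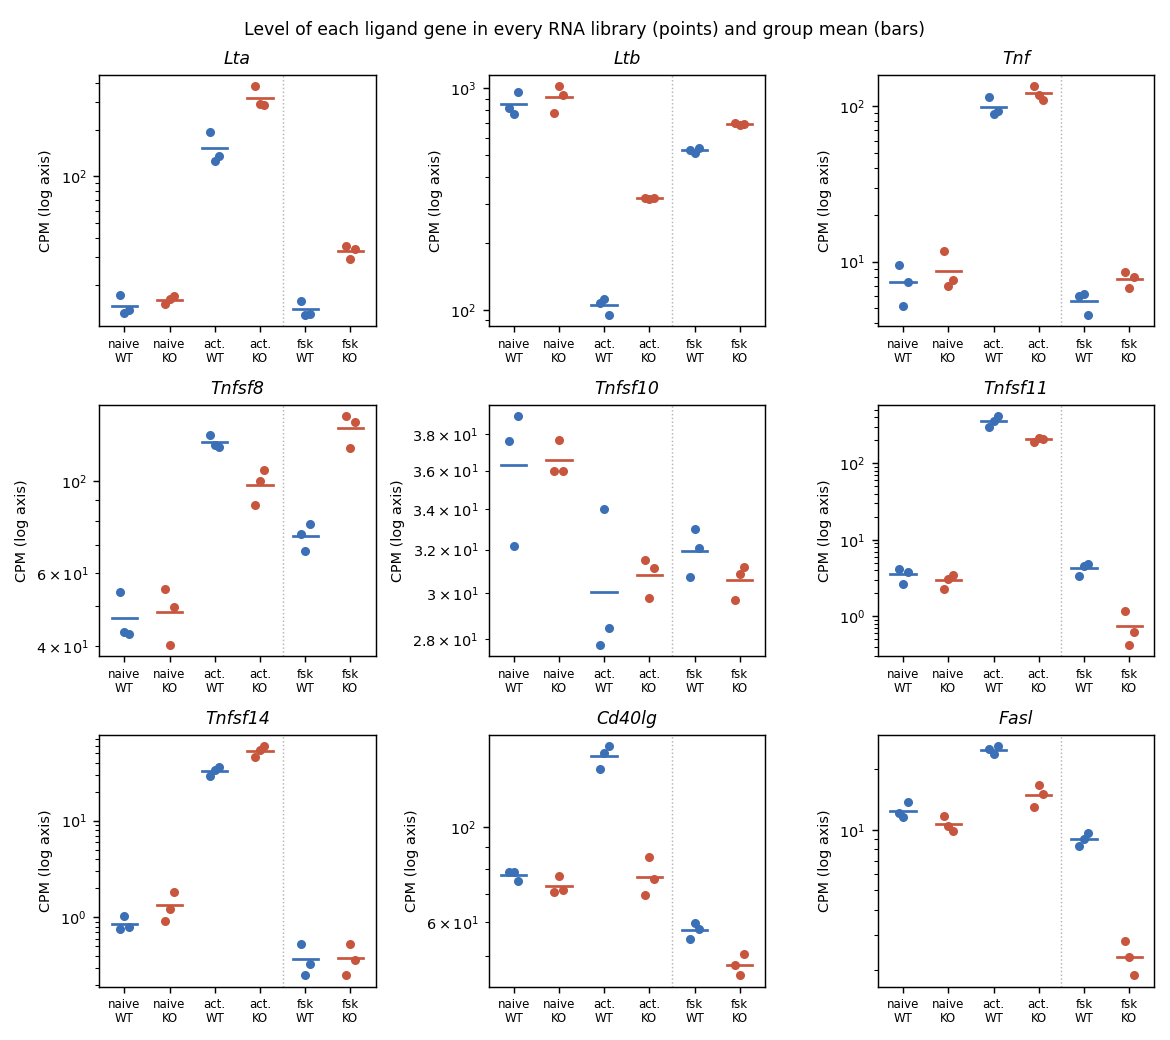
Level of each ligand gene in CPM on a log axis, in each RNA library (points) and as group mean (bars), for naive, activated (act.) and forskolin-treated (fsk) cells, WT in blue and KO in red; the dotted line marks the table that was scaled separately. Ltb fell from 852 to 105 CPM on activation of WT cells and to 320.0 CPM in KO, while Cd40lg was at 146 CPM in activated WT and 76.6 CPM in activated KO cells.

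Lta, Ltb and Tnf form the core of the family in lymphoid tissue. Lta encodes lymphotoxin alpha, which is secreted as a homotrimer that binds the TNF receptors or joins lymphotoxin beta, the product of Ltb, in a membrane complex that binds the lymphotoxin beta receptor. Tnf encodes the inflammatory cytokine TNF. The 3 genes lie next to each other on chromosome 17 (GRCm38.p6), with Ltb at 35194507 to 35196305, Tnf at 35199367 to 35202007 and Lta at 35203165 to 35205578. Tnfsf14, at 57189474 to 57194181 on the same chromosome, encodes LIGHT, a further ligand of the lymphotoxin beta receptor that also binds HVEM.

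Of the 8 genes with a start in the RefSeq promoter table, which lacks Cd40lg, Ltb, Tnf, Tnfsf14 and Fasl had an ATAC site centred within 250 bp of the RefSeq start, and their promoters are shown for that reason. Each line gives 250 bases before the start on the gene's strand, 5′ to 3′, from RefSeq (GRCm38.p6). Capitals mark matches, on either strand and with overlaps kept, to an NF-kappaB motif (GGG, any 5 bases, then CC), the short core of the cyclic AMP response element (CRE, TGACG) or an AP-1 motif (TGANTCA). The windows are chr17:35194257-35194506 on the plus strand for Ltb, and on the minus strand chr17:35202008-35202257 for Tnf, chr17:57194182-57194431 for Tnfsf14 and chr1:161788496-161788745 for Fasl.
Ltb: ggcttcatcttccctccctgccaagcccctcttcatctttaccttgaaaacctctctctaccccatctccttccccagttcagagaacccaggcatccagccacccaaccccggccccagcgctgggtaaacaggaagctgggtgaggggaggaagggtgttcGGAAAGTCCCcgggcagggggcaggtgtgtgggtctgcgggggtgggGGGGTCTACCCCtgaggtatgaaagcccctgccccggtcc
Tnf: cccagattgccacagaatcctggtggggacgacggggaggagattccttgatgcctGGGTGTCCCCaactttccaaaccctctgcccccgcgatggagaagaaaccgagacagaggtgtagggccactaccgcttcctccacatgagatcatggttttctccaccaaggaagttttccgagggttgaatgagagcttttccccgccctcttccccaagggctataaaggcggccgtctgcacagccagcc
Tnfsf14: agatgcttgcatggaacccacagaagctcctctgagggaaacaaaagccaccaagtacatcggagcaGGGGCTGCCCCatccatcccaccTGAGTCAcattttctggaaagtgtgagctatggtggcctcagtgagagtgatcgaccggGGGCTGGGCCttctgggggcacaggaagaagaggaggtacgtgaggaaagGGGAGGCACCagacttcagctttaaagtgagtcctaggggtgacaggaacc
Fasl: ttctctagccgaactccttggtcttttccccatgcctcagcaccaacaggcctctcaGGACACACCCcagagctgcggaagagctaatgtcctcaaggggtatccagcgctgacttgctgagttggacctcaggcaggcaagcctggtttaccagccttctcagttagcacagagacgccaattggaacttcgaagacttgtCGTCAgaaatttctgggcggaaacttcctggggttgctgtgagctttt
The Ltb promoter held 5 NF-kappaB matches in 2 stretches, Tnf had 2 matches in 1 stretch, Tnfsf14 had 6, and Fasl 1. Letters that read as the motif on both strands were counted on each. Fasl held a short CRE core in its minus strand form, 48 to 44 bases before the start, and Tnfsf14 an AP-1 match. The full CRE (TGACGTCA) was in none of the 8 ligand promoters in the table. Among 32851 promoters of this length, 45.8% held the NF-kappaB motif, 17.8% the short CRE core, 1.55% the full CRE and 6.75% the AP-1 motif. A match describes letters in this window and not a bound factor.

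Ltb was the ligand gene with the largest fall on activation, and that fall was smaller in KO cells. In naive WT libraries it was at 816, 770.1 and 968 CPM, and in naive KO libraries at 778, 1026 and 931 CPM. Activated WT libraries held 108, 113 and 95.4 CPM and activated KO libraries 322, 316 and 322 CPM. The naive groups overlapped, whereas every activated KO library lay far above every activated WT library. The log2 fold change on activation was -3.01 ± 0.11 in WT (SE, adjusted p = 5.41e-14) and -1.51 ± 0.10 in KO (adjusted p = 2.99e-10). The interaction, which tests whether the genotype difference changed on activation, gave 1.503 ± 0.14 for Ltb (adjusted p = 5.88e-06). Ltb and Cd40lg were the 2 ligand genes called in that test, 1 higher and 1 lower, beside 3.70% of all genes, 1.18% higher and 2.52% lower. Between activated KO and WT cells Ltb differed by 1.60 ± 0.10 (adjusted p = 1.15e-08). With forskolin the levels were 530.3, 509.5 and 541 CPM in WT and 699, 683 and 688 CPM in KO. The groups again did not overlap, but the difference was smaller at 0.39 ± 0.04 (adjusted p = 3.01e-10). The change of the genotype difference from activated to forskolin-treated cells was -1.18 ± 0.12 (adjusted p = 1.72e-07), in a test that called 18.1% of all genes, 12.3% higher and 5.82% lower, and 5 of the 9 ligand genes, 2 higher and 3 lower.

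Lta rose on activation and was higher in KO than in WT, both in activated cells and with forskolin. Naive libraries held 17.1, 13.1 and 13.7 CPM in WT and 14.999, 16.1 and 16.9 CPM in KO. After activation WT libraries held 194, 125 and 135 CPM and KO libraries 383, 295 and 286 CPM. The naive groups overlapped and the activated groups did not. Activation gave a log2 fold change of 3.37 ± 0.20 in WT and 4.33 ± 0.20 in KO (adjusted p = 1.08e-08 and 1.08e-09). Activated KO cells exceeded WT cells by 1.09 ± 0.16 (adjusted p = 0.00077). For Lta the interaction was 0.96 ± 0.28 and did not pass (adjusted p = 0.0957). It passed without activated WT replicate 1, the highest of its group (1.17, adjusted p = 0.00138), with DESeq2 (adjusted p = 0.0034) and with the replicate number as a block (0.00136), in a range of 0.00136 to 0.255 over 19 alternatives. With forskolin, Lta was at 15.8, 12.8 and 13.0 CPM in WT and 35.4, 29.4 and 34.1 CPM in KO. That is a difference of 1.26 ± 0.10 (adjusted p = 1.56e-11) without overlap, and it differed from the activated difference by 0.21 ± 0.26 (adjusted p = 0.646, 95% interval -0.30 to 0.72).

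Tnf rose in both genotypes, and its genotype difference between activated cells did not pass. It went from 9.52, 5.18 and 7.44 CPM in naive WT to 115, 89.0 and 93.4 CPM in activated WT libraries. In KO it went from 11.7, 6.98 and 7.61 CPM to 135, 118 and 110.4 CPM. Both activated groups were above both naive groups, and the 2 activated groups overlapped. The activation difference was 3.76 ± 0.20 in WT and 3.79 ± 0.20 in KO (adjusted p = 1.15e-09 and 8.27e-10). Activated KO exceeded WT by 0.29 ± 0.15, which did not pass (adjusted p = 0.241, 95% interval -0.01 to 0.59). This interval used a normal multiplier of the SE and is narrower than the edgeR test would give. Same-numbered activated WT and KO libraries deviated together from their group means. Replicates 2 and 3 did so across numbers too (correlation 0.25 for WT 3 with KO 2 and 0.19 for WT 2 with KO 3). The replicate number thus need not mark a pair. With that number as a block the Tnf difference was 0.30 (adjusted p = 0.0211, in a range of 0.0211 to 0.49 over 13 alternatives). With forskolin Tnf was at 6.04, 6.15 and 4.55 CPM in WT and 8.60, 6.77 and 7.92 CPM in KO, 42 to 102 counts a library. The groups did not overlap and the difference was 0.49 ± 0.18 (adjusted p = 0.0357). This call was lost without forskolin KO replicate 1 (adjusted p = 0.112), KO replicate 3 (0.0792) or WT replicate 3 (0.183), and with DESeq2 (0.118).

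Tnfsf14 went from near the detection limit to a level that was higher in KO. Naive libraries held 0.757, 1.02 and 0.797 CPM in WT and 0.923, 1.22 and 1.84 CPM in KO, or 6 to 16 counts a library. Activated libraries held 29.3, 33.2 and 36.2 CPM in WT and 45.8, 53.5 and 58.9 CPM in KO. Activated groups did not overlap, and naive groups did. The rise was 5.22 ± 0.20 in WT and 5.30 ± 0.18 in KO on the log2 scale (adjusted p = 6.53e-14 and 1.72e-14). Between activated genotypes Tnfsf14 differed by 0.68 ± 0.12 (adjusted p = 0.000609), with an interaction of 0.07 ± 0.40 (adjusted p = 0.976, 95% interval -0.71 to 0.86). After forskolin the counts were 4, 2 and 3 in the WT libraries and 3, 5 and 4 in the KO libraries, too few for the test.

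**Figure D2:**
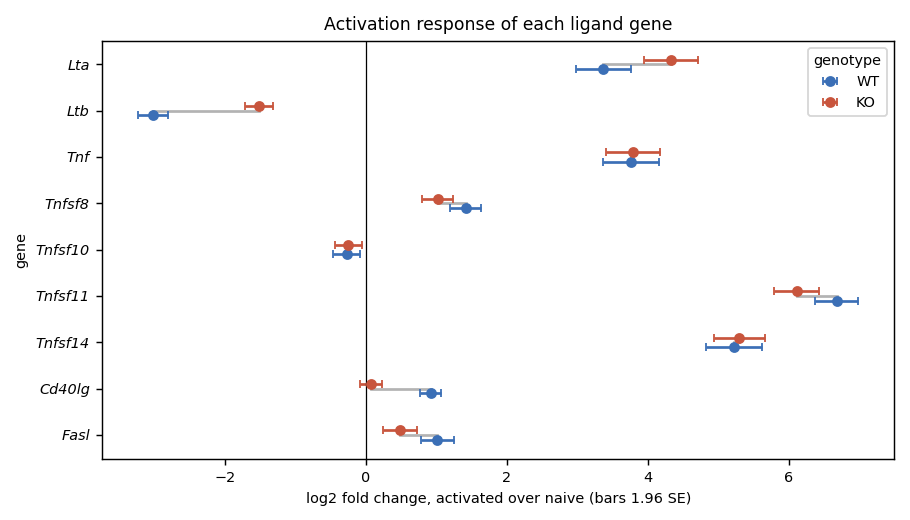
Log2 fold change of each ligand gene from naive to activated cells (points, with bars of the 95% interval), WT in blue and KO in red, grey lines joining the genotypes. Cd40lg rose in WT and sits at 0.07 in KO, and the fall of Ltb was -3.01 in WT against -1.51 in KO.

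Cd40lg, Tnfsf8 and Tnfsf11 encode ligands through which T cells act on antigen-presenting cells and other neighbours. Cd40lg, at 57212143 to 57224042 on chromosome X, encodes CD40 ligand, the main signal of T cell help to B cells. Its rise on activation was seen in WT and not in KO. Naive WT libraries held 78.5, 78.4 and 74.9 CPM and naive KO libraries 70.5, 77.1 and 71.2 CPM. After activation WT libraries were at 137, 149 and 154 CPM, and KO libraries, at 69.4, 84.9 and 75.5 CPM, overlapped the naive ones. The activation difference was 0.92 ± 0.08 in WT (adjusted p = 4.05e-09) and 0.07 ± 0.08 in KO (adjusted p = 0.42, 95% interval -0.09 to 0.22). Activated KO cells were lower than WT by 0.94 on the log2 scale (log2 fold change -0.94 ± 0.08, adjusted p = 1.47e-07). The interaction for Cd40lg was -0.85 ± 0.11 (adjusted p = 0.00013). With forskolin the gene was at 55.0, 59.9 and 57.9 CPM in WT and 47.7, 45.3 and 50.7 CPM in KO. These groups did not overlap either, with a smaller difference of -0.27 ± 0.06 (adjusted p = 0.00139). From activated to forskolin-treated cells the genotype difference of Cd40lg moved by 0.71 ± 0.10 (adjusted p = 2.12e-05).

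Tnfsf11, on chromosome 14, encodes RANKL, the ligand of RANK that drives osteoclast formation and supports dendritic cells and lymph node growth. Of the 9 genes it had the largest fold on activation. Naive libraries held 4.11, 2.68 and 3.85 CPM in WT and 2.31, 3.10 and 3.46 CPM in KO. Activated libraries held 299, 363 and 414 CPM in WT and 193, 218 and 206 CPM in KO. Every activated KO library was below every activated WT library, and the naive groups overlapped. The rise was 6.68 ± 0.16 in WT and 6.11 ± 0.16 in KO (adjusted p = 1.45e-15 and 6.23e-15). Activated KO cells differed from WT by -0.81 ± 0.10 (adjusted p = 5.23e-05), and the Tnfsf11 interaction of -0.57 ± 0.28 did not pass (adjusted p = 0.354). With forskolin, WT libraries held 3.41, 4.52 and 4.87 CPM (26, 36 and 45 counts) and KO libraries 1.18, 0.423 and 0.630 CPM (14, 4 and 7 counts). The difference of -2.47 ± 0.33 passed (adjusted p = 5.72e-07) without overlap, on few counts. Beside the activated difference it was larger by -1.62 ± 0.37 (adjusted p = 0.00383).

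Tnfsf8, on chromosome 4, encodes the ligand of CD30 and was the ligand gene whose genotype difference turned its direction between conditions. In naive cells it was at 54.0, 43.2 and 42.8 CPM in WT and 55.0, 40.2 and 49.6 CPM in KO. Activated WT libraries held 129.7, 123 and 121 CPM and activated KO libraries 87.6, 99.96 and 106 CPM. KO libraries were all below WT libraries there, and the naive groups overlapped. Tnfsf8 rose by 1.42 ± 0.11 in WT and 1.02 ± 0.11 in KO on activation (adjusted p = 2.41e-09 and 1.87e-07). Its interaction of -0.40 ± 0.16 did not pass (adjusted p = 0.21). The activated genotype difference was -0.35 ± 0.10 (adjusted p = 0.0322). That call was lost when any 1 of the 3 activated WT libraries (adjusted p = 0.0915, 0.0686 and 0.0632 without replicates 1, 2 and 3), KO replicate 1 (0.146) or KO replicate 2 (0.081) was left out, and with upper-quartile scaling (0.0671). With forskolin WT libraries held 74.7, 67.8 and 78.7 CPM and KO libraries 144, 120.3 and 139 CPM. The groups stood apart with KO higher, by 0.87 ± 0.07 (adjusted p = 7.14e-08). The change of the Tnfsf8 difference between the conditions was 1.25 ± 0.14 (adjusted p = 1.21e-06).

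Fasl and Tnfsf10 encode the death ligands Fas ligand and TRAIL, on chromosomes 1 and 3. Fasl was lower in KO after activation and with forskolin. Naive libraries held 12.1, 11.6 and 13.7 CPM in WT and 11.7, 10.4 and 9.91 CPM in KO. After activation WT libraries held 25.2, 24.0 and 26.0 CPM and KO libraries 13.0, 16.7 and 15.008 CPM. The naive groups overlapped in a narrow range, and all activated KO libraries were below all activated WT libraries. Fasl rose by 1.02 ± 0.12 in WT and by 0.48 ± 0.12 in KO (adjusted p = 2.81e-07 and 0.00167). Activated KO cells differed from WT by -0.75 ± 0.11 (adjusted p = 0.000141), and the Fasl interaction of -0.54 ± 0.17 did not pass (adjusted p = 0.0967). With forskolin Fasl was at 8.27, 9.04 and 9.64 CPM in WT and 2.78, 2.33 and 1.89 CPM in KO, 63 to 89 and 21 to 33 counts. Groups stood apart by -1.94 ± 0.21 (adjusted p = 7.69e-09). Compared with the activated difference this was lower by 1.15 (log2 change of the difference -1.15 ± 0.20, adjusted p = 0.000182).

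Tnfsf10 varied least of the 9 genes. It was at 37.6, 32.2 and 39.0 CPM in naive WT, 36.0, 37.7 and 36.0 CPM in naive KO, 27.8, 34.0 and 28.4 CPM in activated WT and 31.5, 29.8 and 31.1 CPM in activated KO libraries. The WT naive and activated groups overlapped, as did the genotypes in both states. Its fall on activation was small, -0.27 ± 0.10 in WT and -0.25 ± 0.10 in KO (adjusted p = 0.0175 and 0.0272). The WT call was lost without activated WT replicate 1 or 3 or naive WT replicate 3 (adjusted p = 0.0746, 0.0757 and 0.0543), and the KO call without activated KO replicate 2 or 3 or naive KO replicate 2 (0.0906, 0.0571 and 0.0692) and with DESeq2 (0.0554). The genotype difference was 0.04 ± 0.10 in activated cells (adjusted p = 0.855, 95% interval -0.15 to 0.23). With forskolin, at 30.7, 33.0 and 32.1 CPM in WT and 29.7, 30.9 and 31.2 CPM in KO, it was -0.06 ± 0.07 (adjusted p = 0.537, 95% interval -0.21 to 0.08).

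**Figure D3:**
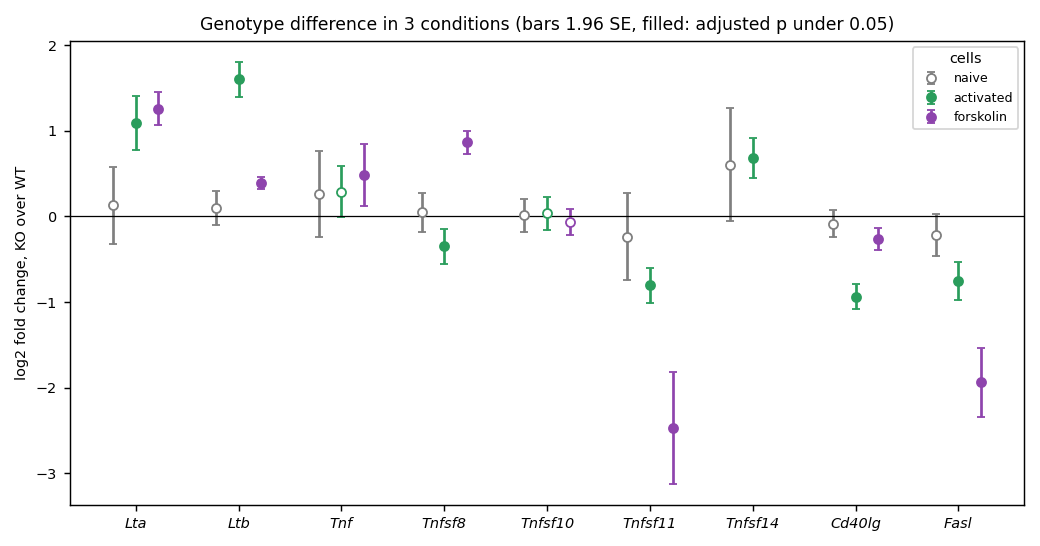
Log2 fold change of KO over WT for each ligand gene in naive (grey), activated (green) and forskolin-treated (purple) cells, with bars of the 95% interval and filled points for an adjusted p under 0.05. The naive points are all open, between -0.24 and 0.61, Lta is higher in KO by 1.09 and 1.26 in the later conditions, and Tnfsf8 lies below 0 in activated cells and above 0 with forskolin.

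The groups of libraries did not overlap between activated genotypes for 7 of the 9 ligand genes, and for 7 of 8 tested with forskolin. Over all tested genes this held for 38.6% and 48.6%. In naive cells it held for 0 of 9 ligand genes and 8.34% of all genes.  Naive and activated levels and their differences share libraries, so the activation differences and the interaction are not independent of the genotype differences.

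Open chromatin was examined at 55 ATAC sites that lay within 10 kb of a ligand gene (mm10). By edgeR, activation opened 27 and closed 21 of these in WT, where 89.9% of 110797 tested sites passed, 51.4% opening and 38.5% closing. In KO it opened 26 and closed 23, where 88.5% of all sites passed, 49.7% opening and 38.8% closing. In naive cells 2 of 55 sites were higher in KO and 0 lower, where 1.54% of all sites passed, 0.938% higher and 0.607% lower. In activated cells 7 were higher and 15 lower, where 28.4% of all sites passed, 10.9% higher and 17.5% lower. The interaction called 1 site higher and 6 lower, where 5.58% of all sites passed, 0.491% higher and 5.09% lower. Scaling to the sum of counts in sites moved the median activation difference of all sites from 0.54 to 1.09 in WT and from 0.44 to 1.04 in KO. Activation differences below are relative to TMM scaling. By the authors' deposited table, 4 of the 55 sites had a false discovery rate (FDR) under 0.05 between activated genotypes and 0 between naive genotypes. These 4 were the Tnfsf14 site at -4316 bp, the Tnfsf8 sites at -9593 and 10847 bp, and the Tnfsf10 site at 9852 bp from the start. Every other genotype difference described below did not pass there.

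The lymphotoxin cluster held 10 sites, most of them within 10 kb of more than 1 of its genes, so that they cannot be assigned to a single gene by distance. In activated cells 3 were higher in KO and 0 lower, where 10.9% of all sites were higher and 17.5% lower. The site over the Ltb start, centred at -98 bp from it (chr17:35194209-35194609), contains the whole promoter window printed above. It was at 63.5, 58.7 and 74.9 CPM in naive WT, 74.6, 71.8 and 75.7 CPM in naive KO, 11.9, 11.5 and 9.47 CPM in activated WT and 18.1, 17.2 and 16.5 CPM in activated KO libraries. Naive groups overlapped, and the naive difference passed without naive WT replicate 3 alone (0.28, adjusted p = 0.0474, in a range of 0.0474 to 0.758 over 10 alternatives). Both activated groups were far lower, and every activated KO library was above every activated WT library. This is the order of the Ltb RNA levels in the same 4 groups. The Ltb start site closed by -2.58 ± 0.09 in WT and -2.10 ± 0.08 in KO (log2, SE, adjusted p = 7.06e-17 and 1.12e-15). Between activated genotypes it differed by 0.66 ± 0.09 (adjusted p = 1.38e-05), and its interaction was 0.48 ± 0.12 (adjusted p = 0.0198). In the authors' deposited table the activated difference at this site has an FDR of 1.

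The site over the Tnf start, centred at -84 bp (chr17:35201891-35202291), also contains the printed promoter window. It opened on activation, from 20.9, 20.4 and 23.1 CPM to 41.7, 37.1 and 37.2 CPM in WT, and from 26.2, 23.1 and 23.6 CPM to 51.7, 50.8 and 49.1 CPM in KO. All activated KO libraries were above all activated WT libraries, by 0.39 ± 0.06 (adjusted p = 9.53e-05), whereas the RNA levels of Tnf overlapped. The authors' deposited table gives this difference an FDR of 1. The third called site, inside Ltb and 1296 bp past its start, was at 42.8 CPM in activated WT and 48.3 CPM in activated KO cells (0.17 ± 0.06, adjusted p = 0.0387). That call was lost without any 1 of the 6 activated libraries (adjusted p = 0.107 to 0.178). The other sites of the cluster, among them the site centred 456 bp inside Lta at 24.5 and 27.4 CPM, did not pass in activated cells.

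**Figure D4:**
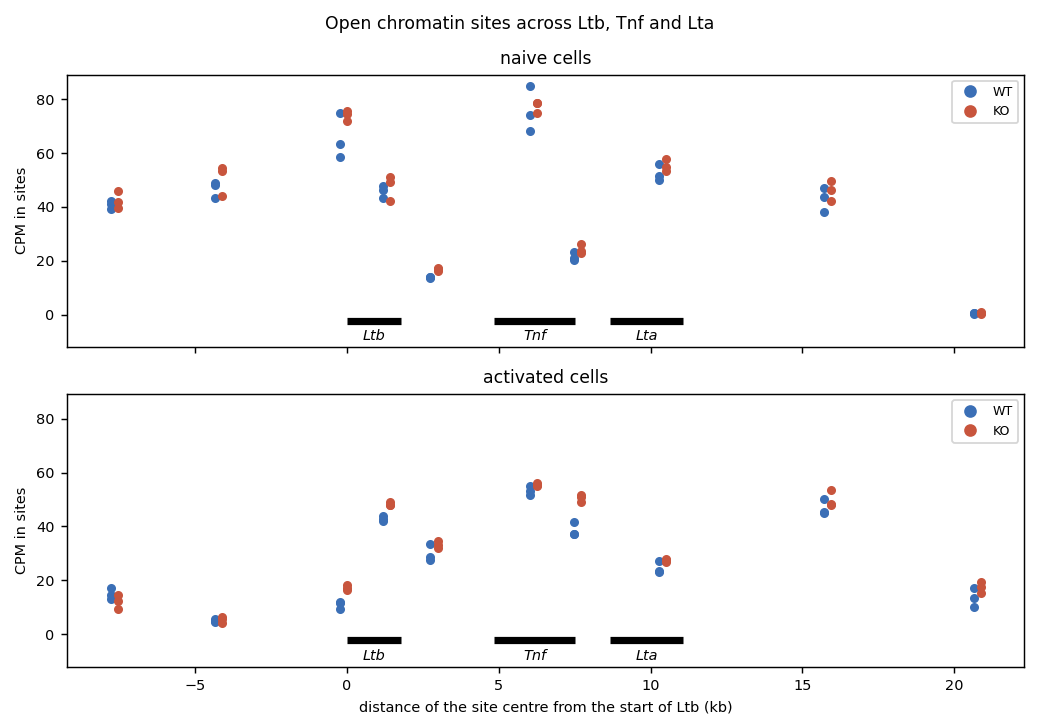
CPM of each ATAC library at the 10 sites of the cluster, by distance of the site centre from the Ltb start in kb, naive cells above and activated cells below, WT in blue and KO in red (drawn side by side), with the spans of Ltb, Tnf and Lta as black bars. At the Ltb start the level falls from 65.7 and 74.1 CPM in naive WT and KO to 10.9 and 17.3 CPM in activated cells.

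At sites within 10 kb of Tnfsf14, most called differences between activated genotypes were opposite in direction to that of the RNA. The start site and the sites at -4316 and -7858 bp also lay within 10 kb of C3. Distance thus does not assign them to Tnfsf14 alone. The start site, centred at -94 bp (chr17:57194075-57194475), opened on activation by 1.65 ± 0.08 in WT and 1.40 ± 0.08 in KO (adjusted p = 1.03e-14 and 2.07e-13) and did not pass between activated genotypes (-0.14 ± 0.07, adjusted p = 0.126). Among 7 Tnfsf14 sites, activated KO cells had 3 lower and 1 higher, although the RNA was higher. Over all sites 17.5% were lower and 10.9% higher. The site at -4316 bp was at 15.7, 11.3 and 10.4 CPM in activated WT and 5.97, 5.66 and 5.82 CPM in activated KO libraries. These groups stood apart by -1.10 ± 0.16 (adjusted p = 1.92e-05), and the authors' deposited table gives an FDR of 0.046. The site at -7858 bp differed by -0.87 ± 0.16 (adjusted p = 0.00027), and the site 11148 bp past the start by -0.48 ± 0.09 (adjusted p = 0.000538). The higher site, 5183 bp past the start, was at 4.30 CPM in WT and 6.58 CPM in KO (0.62 ± 0.13, adjusted p = 0.0015).

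At Tnfsf11 and Fasl, whose RNA was lower in activated KO cells, 4 of 6 and 2 of 6 sites were lower too, where 17.5% of all sites were. In the authors' deposited table none of these 6 called sites passed, with an FDR of 0.288 to 0.964. No Tnfsf11 or Fasl site passed the test as higher. The site 32127 bp past the start, beyond the end of the gene, opened from 0.273 CPM or less in every naive library to 7.48, 10.4 and 11.2 CPM in activated WT and 4.86, 6.09 and 6.16 CPM in activated KO libraries. The activated groups did not overlap and differed by -0.76 ± 0.18 (adjusted p = 0.00263). Within Tnfsf11, the sites 3809, 13750 and 15205 bp past the start differed by -0.48 ± 0.12, -0.76 ± 0.20 and -0.39 ± 0.11 (adjusted p = 0.00392, 0.00548 and 0.00916). The Fasl site 13133 bp past the start, beyond the gene's end (chr1:161775162-161775562), was at 17.3, 15.2 and 15.6 CPM in activated WT and 7.49, 9.14 and 6.87 CPM in activated KO libraries. This site also lay within 10 kb of Gm31869. It had been at 11.3 and 9.68 CPM in naive WT and KO cells. With TMM scaling it thus rose in WT (0.50 ± 0.11, adjusted p = 0.000291) and fell in KO (-0.31 ± 0.12, adjusted p = 0.0235). These activation differences were not followed under other scalings. Scaling to the sum moved the KO median of all sites from 0.44 to 1.04, by more than this fall, so its direction may depend on the scaling. Between activated genotypes the difference at this site was -1.03 ± 0.11 (adjusted p = 5.87e-07), and its interaction was -0.81 ± 0.17 (adjusted p = 0.00504). The Fasl site at -6386 bp differed by -0.73 ± 0.12 (adjusted p = 0.00014), with an interaction of -0.73 ± 0.16 (adjusted p = 0.00994, or 0.0619 without activated KO replicate 3). The Fasl start site, centred 21 bp inside the gene, closed on activation although the RNA rose, by -1.55 ± 0.07 in WT and -1.58 ± 0.07 in KO (adjusted p = 5.65e-15 and 7.15e-15). Between activated genotypes it stood at -0.19 ± 0.07 (adjusted p = 0.0506), and passed without activated WT replicate 2 (0.0342), with a replicate block (0.0287) and with scaling to the sum of counts in sites (0.035), in a range of 0.0287 to 1 over 10 alternatives.

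At Tnfsf8, activated KO cells had 3 of 12 sites lower and 1 higher than WT, where 17.5% of all sites were lower and 10.9% higher. The site at -9593 bp was at 7.44, 4.38 and 3.49 CPM in activated WT and 2.04, 1.07 and 1.54 CPM in activated KO libraries, after 0.205 CPM or less in every naive library. It showed the largest genotype difference of the 55 sites in activated cells, -1.72 ± 0.26 (adjusted p = 4.39e-05), and the authors' deposited table gives an FDR of 0.00473. The site 10847 bp inside the gene was at 7.78, 6.14 and 6.12 CPM in WT and 2.89, 3.28 and 2.70 CPM in KO, a difference of -1.18 ± 0.16 (adjusted p = 8.97e-06), with an FDR of 0.0388 in the authors' deposited table. A further site, 13937 bp inside, differed by -0.55 ± 0.13 (adjusted p = 0.00297). The higher site, 20664 bp inside, was at 16.0 and 18.9 CPM (0.24 ± 0.09, adjusted p = 0.0443), and its call was lost without activated WT replicate 2 or 3 or any 1 activated KO library (adjusted p = 0.0872 to 0.263) and with RLE scaling (0.0815). In naive cells 1 Tnfsf8 site, 1152 bp inside, was higher in KO at 26.2 against 20.2 CPM (0.37 ± 0.09, adjusted p = 0.0462). This was lost without naive WT replicate 1 or 2 or naive KO replicate 1 or 3 (adjusted p = 0.126 to 0.301) and with RLE scaling (0.157).

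Tnfsf10 and Cd40lg sites went against the RNA in part. Of 6 Tnfsf10 sites 3 were lower in activated KO cells, where 17.5% of all sites were, although the RNA overlapped between genotypes. The site 9852 bp inside Tnfsf10 was at 1.93, 3.19 and 3.08 CPM in WT and 1.22, 1.35 and 1.05 CPM in KO (-1.17 ± 0.24, adjusted p = 0.000756), with an FDR of 0.0438 in the authors' deposited table. The site 13855 bp inside was higher in naive KO cells, at 1.76 against 0.922 CPM (0.95 ± 0.24, adjusted p = 0.0438), and lower in activated KO cells, at 4.79 against 6.89 CPM (-0.52 ± 0.13, adjusted p = 0.00401). Its naive call was lost without naive WT replicate 1 or 2 or any 1 naive KO library (adjusted p = 0.0811 to 0.266), with RLE scaling (0.0605) and with scaling to the sum (0.0519). The third Tnfsf10 site, 8687 bp inside, had an adjusted p of 0.0454 (-0.82 ± 0.30), which rose to 0.0521 to 0.176 without activated WT replicate 1 or 2 or KO replicate 2 or 3. At Cd40lg 6 of 8 sites closed on activation in WT and all 8 in KO, and none opened, although the RNA rose in WT. These calls are relative to TMM scaling and were not followed under others. The smallest fall in KO was -0.38. Scaling to the sum moved the KO median of all sites from 0.44 to 1.04, by more than this fall, so its direction may depend on the scaling too. Between activated genotypes 2 Cd40lg sites were higher in KO and 0 lower, opposite to the RNA, where 10.9% of all sites were higher and 17.5% lower. Neither of the 2 passed in the authors' deposited table. The site at chrX:57219548-57219948, inside the gene, was at 6.38, 5.97 and 6.46 CPM in activated WT and 9.08, 8.19 and 7.997 CPM in activated KO libraries (0.43 ± 0.11, adjusted p = 0.00587). The other, at chrX:57228133-57228533, was at 5.45 and 6.63 CPM (0.28 ± 0.10, adjusted p = 0.0483) and lost its call without activated WT replicate 2 or 3 or any 1 activated KO library (adjusted p = 0.061 to 0.174) and with RLE scaling (0.0834). That site lay outside Cd40lg and also within 10 kb of Arhgef6, so distance does not assign it to Cd40lg alone.

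**Figure D5:**
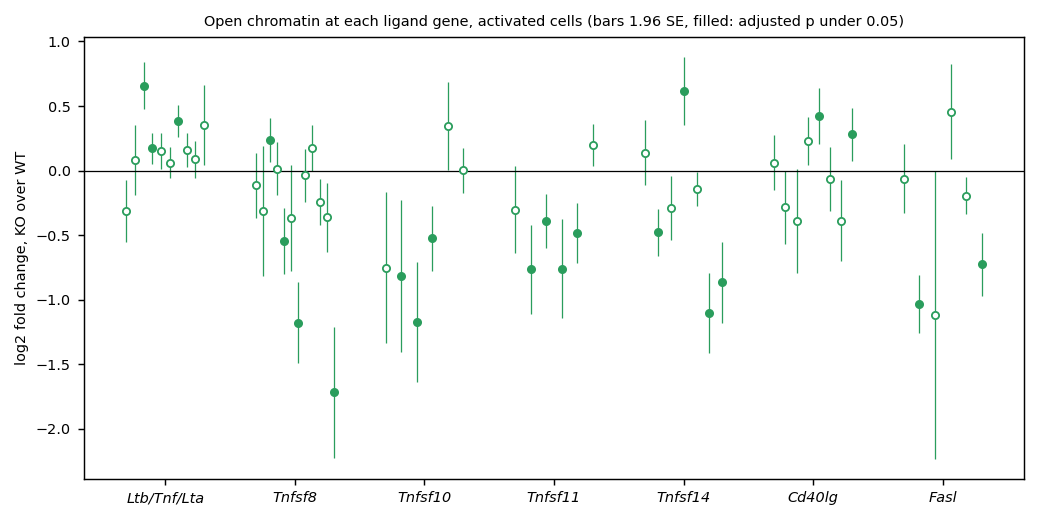
Log2 fold change of KO over WT in activated cells at each of the 55 ATAC sites, in genome order within each gene or cluster, with bars of the 95% interval and filled points for an adjusted p under 0.05. The 3 called sites of the lymphotoxin cluster lie above 0, the 4 called Tnfsf11 sites and 2 called Fasl sites below 0, and the lowest called point is the Tnfsf8 site at -1.72.

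Other genes of the pathway were followed in 6 lists. Unlike those of the 9 ligand genes, their calls were not checked under other settings or with a library left out. The counts below stand beside 14.9% of all genes called between activated genotypes (5.89% higher, 9.04% lower) and 38.5% with forskolin (19.7% higher, 18.8% lower), and several of them are near those shares. Of 9 other TNF superfamily ligand genes, 4 were measured in enough libraries to be tested, and all 4 rose on activation in both genotypes. Cd70, the ligand of CD27, was higher in activated KO at 17.1 ± 0.798 against 10.9 ± 2.49 CPM (SD, log2 difference 0.65 ± 0.17, adjusted p = 0.0198). With forskolin 1 of 2 tested was lower in KO, Tnfsf9, the ligand of 4-1BB (-0.78 ± 0.29, adjusted p = 0.0343). Of 12 genes of receptors of the 9 ligands or, for Btla and Cd160, of partners of the receptor HVEM, 9 could be tested in the activated comparison and 0 passed by edgeR. With no adjustment, 3 of the 9 lay under 0.05 in the same edgeR test, named after their values were seen: Tnfrsf1b (-0.29), Tnfrsf14 (0.30) and Fas (-0.24), with adjusted p = 0.092, 0.127 and 0.0752. With forskolin 3 of 7 tested genes of this list were higher in KO and 2 lower. Among them Fas, the receptor of Fas ligand, was at 37.0 ± 1.91 against 25.2 ± 0.324 CPM (0.55 ± 0.08, adjusted p = 8.24e-07), while Fasl itself was lower. Tnfrsf10b, which encodes the mouse TRAIL receptor, was at 12.6 ± 0.391 against 21.3 ± 2.25 CPM (-0.75 ± 0.11, adjusted p = 3.57e-06), and Btla, an inhibitory receptor that binds HVEM, was higher (0.59 ± 0.05, adjusted p = 5.29e-10).

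Inside the cell, 12 NF-kappaB subunits and kinases were measured, with 4 below and 1 above WT in activated KO cells. The gene above WT was Nfkbie (0.22 ± 0.07, adjusted p = 0.0476), named after its value was seen. Nfkb1, which encodes p105 and p50, was at 616 ± 12.2 against 1049 ± 31.2 CPM (-0.77 ± 0.06, adjusted p = 6.27e-08). Rel, the gene of the subunit c-Rel, was at 58.3 ± 5.13 against 117 ± 9.39 CPM (-1.003 ± 0.10, adjusted p = 1.11e-06). The inhibitor gene Nfkbib (-0.67 ± 0.10) and Nfkb2 (-0.26 ± 0.07) were lower too. The median over the 12 genes was -0.11 and that of all genes 0.01. With forskolin 2 of these 12 were higher and 5 lower, among them Nfkb2 (-0.58 ± 0.04) and the kinase gene Map3k14 (-0.54 ± 0.06), whereas the inhibitor gene Nfkbia was higher (0.46 ± 0.04). Of 21 adaptors and components of receptor complexes, activated KO cells had 4 above WT and 1 below. The lower gene was Traf1, at 122 ± 7.62 against 207 ± 28.3 CPM (-0.76 ± 0.09, adjusted p = 7.34e-06), and among the higher ones were Otulin (0.41 ± 0.09), Traf5 (0.34 ± 0.09) and Rbck1 (0.24 ± 0.06). With forskolin 4 were higher and 5 lower. Tnfaip3, the gene of the NF-kappaB inhibitor A20, went from 237 ± 13.7 CPM in WT to 87.3 ± 1.64 CPM in KO libraries (-1.44 ± 0.04, adjusted p = 1.03e-21), Birc2 was lower (-0.41 ± 0.05) and Traf3 higher (0.30 ± 0.05).

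Proteases that cut the ligands and factors that degrade their mRNAs were the last lists. Of 9 genes of sheddases and processing proteases 7 were tested and 1 was lower in activated KO cells. This was Furin, the gene of a proprotein convertase, at 77.4 ± 7.34 against 166 ± 58.3 CPM (-1.10 ± 0.20, adjusted p = 0.0039). With forskolin 2 were lower, the intramembrane protease gene Sppl2a (-0.19 ± 0.04) and Adam17, which encodes the TNF convertase (-0.14 ± 0.05, adjusted p = 0.0344). Of 11 mRNA decay factors 1 was lower in activated KO cells, Zc3h12d (-0.24 ± 0.06, adjusted p = 0.0147). With forskolin 1 was higher and 4 lower. Zfp36, the gene of tristetraprolin, which binds AU-rich elements such as that of Tnf mRNA, was higher at 144 ± 7.37 against 85.5 ± 2.93 CPM (0.75 ± 0.05, adjusted p = 1.29e-13). Its relative Zfp36l2 was lower at 651 ± 20.4 against 1150 ± 21.8 CPM (-0.82 ± 0.03, adjusted p = 8.52e-18), as was Tia1 (-0.31 ± 0.04).

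Across the 18 RNA libraries, the genes closest to each of 8 ligand genes were sought (Tnfsf14 was left out, since it had too few counts for the test with forskolin) by the root-mean-square difference of centred log2(CPM + 1) values among 9631 candidates. Closest to Ltb was the sialyltransferase gene St8sia6, with a difference of 0.28 where Ltb itself spread by 1.04 and the median candidate stood at 1.10. For Tnf it was Psat1, a serine synthesis gene, at 0.19 where Tnf spread by 1.86, followed by Ccne1 at 0.21. Tnfsf11 was closest to Irf4, a transcription factor gene of activated lymphocytes, at 0.62 where Tnfsf11 spread by 3.06. For Cd40lg the nearest gene was Tmed5 (0.20), for Fasl Nab2 (0.27), for Tnfsf8 Txnrd1 (0.21), for Lta 3110082I17Rik (0.37) and for Tnfsf10 Fgfr1op2 (0.09). For this the 18 libraries were scaled together with TMM, unlike the levels above. A shift between the naive and activated table and the forskolin table is thus part of these differences and spreads. These are descriptions over libraries of 6 groups.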

How the data were processed

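RNA-seq counts per gene were deposited by the authors as whole numbers without scaling, in a table of naive and activated libraries and another of forskolin libraries, per the file headers. For ATAC-seq the authors deposited counts per site with log2 mean levels and log2 folds (not scaled to depth, given here as KO minus WT), p-values and FDR. Genome build mm10 comes from the submitters' processing notes. Aligner, counter, peak caller and strand setting are not given in the sources used here, so overlapping or antisense genes cannot be told apart. Rows without a gene symbol (at most 0.159% of a library's counts) were left out.

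Members, gene lists, named genes and tests were chosen with earlier results of these data known. All 9 members were named in every comparison. From each list up to 4 genes past the test were named in activated cells and up to 3 with forskolin, by smallest p. Up to 4 called ATAC sites a gene were described. The nearest 2 genes were computed among those with at least 5 CPM on average.

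Naive and activated RNA libraries shared 1 fit, forskolin libraries had another, and all 18 were joined to compare genotype differences between activated and forskolin-treated cells. The 12 ATAC libraries shared 1 fit. Tests were edgeR 4.0.16 quasi-likelihood (R 4.3.3, TMM, filterByExpr, robust, Benjamini-Hochberg over the whole table, 0.05). The code was run on simulated counts, drawn independently with the same spread setting for every gene or site. Such counts lack the deviations shared between these libraries, so that run does not show the error rate in these data. SE was the log2 fold change over the root of F. All intervals, also those drawn as bars, came from this SE with a normal multiplier, without the degrees of freedom of the F test. They are thus narrower than that test and can exclude no change where it did not pass. For the Tnfsf11 interaction the interval was -1.12 to -0.02, beside an unadjusted p of 0.0616 in the edgeR test. CPM used TMM library sizes, and 3 counts equal 0.251 to 0.391 CPM. Fold changes and intervals cover the spread between libraries. Replicates of a group differed beyond sampling noise (chi-square per degree of freedom 1.68 to 19.1).

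Pairing was checked by the correlation of deviations between same-numbered libraries. It was above 0.1 in every pair for activated WT and KO RNA (0.56, 0.28 and 0.24) and for naive and activated KO RNA (0.36, 0.18 and 0.13). The same held for naive WT with activated KO RNA (0.36, 0.12 and 0.19). It did not hold for the other RNA groups or for ATAC. Unlike-numbered activated libraries correlated as well, at 0.25 for WT 3 with KO 2 and 0.19 for WT 2 with KO 3. Alternatives were RLE, upper-quartile or sum scaling, other filters, limma-voom 3.58.1, DESeq2 1.42.0, a replicate block, gene spans without flanks or with 50 kb, the authors' FDR, and leaving out each library. RefSeq tables of GRCm38.p6 gave spans, starts and promoters.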

Additional observations from a re-analysis of the deposited data

Results flagged for a closer look

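A genotype difference that changed between conditions, by a test of the change itself, drew attention to 5 genes and 7 ATAC sites (edgeR, adjusted p under 0.05). From naive to activated cells the change was 1.503 for Ltb and -0.85 for Cd40lg. From activated to forskolin-treated cells it was -1.18 for Ltb, 1.25 for Tnfsf8, -1.62 for Tnfsf11, 0.71 for Cd40lg and -1.15 for Fasl, with no untreated counterpart of the forskolin cells.

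Among ATAC sites, the change from naive to activated cells was 0.48 at the Ltb start (-98 bp). At Fasl it was -0.81 for the site 13133 bp past the start and -0.73 for the site at -6386 bp. For the Tnfsf10 site 13855 bp past the start it was -1.48. At Tnfsf8 it was -0.73 at 13937 bp, -1.70 at 10847 bp and -0.62 at -1879 bp. The call at 10847 bp (adjusted p = 0.0404) was lost without any 1 of 8 of the 12 libraries (up to 0.191). That at 13937 bp was lost without activated KO replicate 2 or 3 (0.0623 and 0.0624), and that at -1879 bp without activated KO replicate 3 (0.0654).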

How the results depend on the processing

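Of 914 values of 62 single RNA results under the alternatives, 870 kept their direction and side of the threshold, 17 lost the call, 4 gained it and 23 changed sign. Of 477 ATAC values, 406 kept both, 67 lost the call, 4 gained it and 0 changed sign. These ATAC values cover sites called between genotypes or in the interaction, and the start sites of Ltb, Tnf, Tnfsf14 and Fasl. Activation differences at all other sites were not followed, so a change of sign there would not show. The RNA sign changes all came from leaving out 1 library, in results that did not pass. The ranges were -0.019 to 0.13 for Tnfsf10 between activated genotypes, -0.013 to 0.36 for Lta from activated to forskolin, and -0.0064 to 0.14 for Cd40lg on activation of KO cells. In the interaction they were -0.21 to 0.29 for Tnf, -0.035 to 0.12 for Tnfsf10 and -0.12 to 0.38 for Tnfsf14. Between naive genotypes they were -0.0024 to 0.49 for Tnf, -0.058 to 0.056 for Tnfsf10 and -0.059 to 0.16 for Tnfsf8.

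Leaving out 1 library gave 1151 to 1393 genes between activated genotypes (1789 with all; 1151 without KO replicate 3), 290 to 472 in the interaction (443; 290 without activated KO replicate 2) and 11 to 38 between naive genotypes (29; 11 without WT replicate 2). It gave 3674 to 8433 sites in the interaction (6182; 3674 without activated KO replicate 2), 3 to 9 of them near the ligand genes (7; 3 without activated KO replicate 3). Between naive genotypes it gave 665 to 1947 sites (1711; 665 without KO replicate 3) and 0 to 3 near the ligand genes (2; 0 without KO replicate 1). DESeq2 called 59 genes between naive genotypes. The authors' deposited FDR called 5713 sites between activated genotypes (31489 here), 4 near the ligand genes (22 here), and 19 and 0 between naive genotypes. Gene spans without flanks held 30 sites, of which 13 were called between activated genotypes, 4 in the interaction, 25 on activation of WT and 28 of KO. With 50 kb these were 54, 16, 133 and 135 of 143 sites, as more or fewer sites were counted. Over all sites the shares called in these comparisons were 28.4%, 5.58%, 89.9% and 88.5%. Near the ligand genes, RLE scaling left 0 naive calls and scaling to the sum left 1. The cause was not tested except for the window.

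Upper-quartile scaling gave 987 higher and 843 lower genes between activated genotypes (706 and 1083 with TMM), 192 and 257 in the interaction (141 and 302), and 1123 and 1180 from activated to forskolin (1548 and 734). RLE scaling gave 649 higher and 816 lower sites between naive genotypes (1039 and 672), and scaling to the sum 2132 and 5705 in the interaction (544 and 5638) and 66656 and 32401 on activation of WT (56956 and 42685). On activation of KO the sum gave 67189 and 31196 (55072 and 43005).

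With a replicate block 30 of 55 ligand sites were called between activated genotypes (22 without), 9 higher and 21 lower, 3 between naive genotypes (2 without), 49 on activation of WT (48 without) and 50 of KO (49 without). In RNA 8 ligand genes were called between activated genotypes, 3 in the interaction and 7 with forskolin. Over all sites the block called 2771 between naive genotypes (1711 without). Its other counts over all genes and sites are not given here, so the ligand counts are not read as particular to these genes. Among the ligand genes and the sites followed one by one, the block changed the calls of Tnf between activated genotypes (adjusted p = 0.0211), Lta in the interaction (0.00136) and the Fasl start site (0.0287). Tnfsf14 after forskolin, at 2 to 5 counts a library, was beyond the depth of these libraries.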
